A study of Mus musculus with 6 samples.

Results

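The deubiquitinase gene Usp2 and 9 genes of the circadian clock (Per1, Per2, Per3, Cry1, Cry2, Nr1d1, Dbp, Tef and Arntl) were followed in mouse leukaemia cells with and without Cdh1. They were found by symbol among the probe sets that the platform annotation assigns to a single gene. That gave 22 probe sets for the 10 genes, of 34945 probe sets for 18193 genes in all, and each gene was read from the probe set whose mean over all 6 arrays was highest. The genes were picked with the difference between the groups already known, so their differences between the groups are a description and carry no test.

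Both groups were C57BL/6 mice homozygous for a conditional gene-trap allele of Cdh1 with a floxed cDNA (Cdh1f/f). Cdh1 here means the protein of mouse Fzr1, a coactivator of the anaphase-promoting complex. Cdh1-deficient donors were Mx1-Cre(+)/Cdh1f/f and Cdh1-intact donors were their Mx1-Cre(-)/Cdh1f/f littermates. The Cre is driven by the interferon-responsive Mx1 promoter, and pIpC, which induces it, was given to both groups at 7 to 8 weeks of age. Marrow was taken 4 weeks after the last pIpC dose and 2 days after 5-fluorouracil at 150 mg/kg, and N-myc was carried by the retroviral vector pMXs-IG. RNA came from sorted GFP-positive marrow mononuclear cells of 3 moribund mice per group, with 1 array per mouse (the host mice are not described further in the sources used here) and values on a log2 scale. The leukaemias and their arrays are called intact or deficient, with their replicate number. No source used here gives the hour at which a mouse was sampled.

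The mammalian clock is a feedback loop of transcription. CLOCK and BMAL1, the product of Arntl, bind E-boxes and drive the Per and Cry genes, whose proteins come back to inhibit them, while the nuclear receptor REV-ERB alpha, from Nr1d1, represses Arntl. DBP and TEF are output factors that bind D-boxes. Usp2 is rhythmic in many tissues, and USP2 removes ubiquitin from clock proteins and from cell cycle and p53 pathway proteins such as cyclin D1 and MDM2.

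Promoter sequences show where such elements lie in these genes. RefSeq windows of 300 bases (GRCm38.p6), from 250 before to 50 after a gene start, were present for 9 of the 10 genes in 12 windows, since Per1, Tef and Arntl had 2 each. The 250 bases before the start of Usp2 (chr9:44084670-44084919, + strand), the gene with the largest difference, are shown for their base composition of 71.6% G and C:
Usp2: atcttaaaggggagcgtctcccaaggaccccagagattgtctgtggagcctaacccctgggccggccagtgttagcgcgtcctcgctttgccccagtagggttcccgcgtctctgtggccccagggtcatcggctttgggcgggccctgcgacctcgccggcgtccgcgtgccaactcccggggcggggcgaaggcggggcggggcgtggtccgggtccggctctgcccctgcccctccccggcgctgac
None of the 7 motifs searched on both strands is spelled in the Usp2 window. The base composition of other windows was not computed, so that of Usp2 cannot be called unusual.

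The E-box CACGTG lay in 4 windows of Cry1, Per1 and Tef, against 7.15% of all 32851 windows, and both starts of Tef had 1. The next stretches set these E-boxes and the related CACGTT side by side, with the match in capitals. CACGTT is read on the opposite strand, so it appears as AACGTG.
Tef, chr15:81802534-81802563, + strand: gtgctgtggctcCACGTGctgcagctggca
Tef, chr15:81811264-81811293, + strand: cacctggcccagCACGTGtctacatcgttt
Per1, chr11:69098771-69098800, + strand: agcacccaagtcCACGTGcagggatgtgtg
Cry1, chr10:85185105-85185137, - strand: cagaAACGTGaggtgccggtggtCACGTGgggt
Cry2, chr2:92434218-92434247, - strand: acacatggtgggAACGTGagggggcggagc
Nr1d1, chr11:98775388-98775417, - strand: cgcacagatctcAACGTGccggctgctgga
CACGTT was in the windows of Cry1, Cry2 and Nr1d1 and in 4.68% of all windows, and in Cry1 both forms stood close together. Per3 was the member with the D-box TTATGTAA, which 0.938% of all windows held, and it had 2 copies, shown next:
Per3, chr4:151044852-151044881, - strand: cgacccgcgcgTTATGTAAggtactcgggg
Per3, chr4:151044805-151044834, - strand: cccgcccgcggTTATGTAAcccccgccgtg
The ROR element TAGGTCA was in 1 window of Arntl, 31 bases after the start, and in 2.61% of all windows. TTACGTAA, TGGGTCA and the cAMP element TGACGTCA were in no member window. These matches are descriptions of letters, not binding sites.

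Some arrays stood apart before any comparison. The 9 measured B-lineage markers averaged 8.75 to 9.39 on 5 arrays and 4.97 on intact array 2, where Cd79b was at 4.35. On that array, whose label says B cell leukaemia, 9 T and NK cell markers averaged 9.54. Their mean was 7.03 on intact array 3 and stayed at 5.17 to 5.40 on the others. Neutrophil markers averaged 6.06 on intact array 2 and 9.09 to 11.26 elsewhere. Intact array 1 differed in sex-linked transcripts, with Xist at 6.75 against 12.58 to 13.17 elsewhere. The Y-linked Eif2s3y was at 9.60 on that array and at 2.68 to 3.22 elsewhere. The 4 measured erythroid markers averaged 6.13 on intact array 1 and 4.67 to 5.04 elsewhere, mostly through Alas2 (9.31 against 4.82 to 5.61). Klf1 was also highest there (5.66). Hba-a1 stayed at 3.27 to 3.61 on all arrays, and Epor was higher on intact array 2 (6.21) than on intact array 1 (6.07). Fzr1 overlapped between the groups at intact array 2 (8.92, 8.04 and 8.92 on the Cdh1-intact, 8.10, 7.73 and 8.22 in the deficient leukaemias). Its difference was -0.61 (SE 0.28), or -0.91 (SE 0.17) with the groups apart when that array was left out, and no source used here places its probes relative to the trapped exons. In such sorted bulk samples, fewer cells of a type and less RNA per cell cannot be told apart.

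Usp2 had the largest difference of the 10 genes. It lay at 6.89, 6.82 and 6.89 on intact arrays 1, 2 and 3, and at 7.98, 8.24 and 8.69 in the deficient leukaemias. On this chosen probe set the intact arrays were nearly level, including array 2 with its T-cell transcripts, and every deficient array lay above them. The difference was 1.43 on the log2 scale (SE 0.19), which is 2.70-fold, from 6.87 ± 0.04 to 8.30 ± 0.36 (SD, n = 3 each). Without intact array 2 it was 1.41 (SE 0.22). Of the marker lists, that of stroma and endothelium had a mean of 4.80 to 5.02 on the intact arrays and 5.02 to 5.34 on the deficient arrays. Of its 5 genes, only Sparc was higher with the groups apart. Sparc lay at 5.05 to 5.80 in the intact leukaemias and at 6.86, 7.93 and 8.04 in the deficient leukaemias. Among the latter its order was that of Usp2. The endothelial gene Pecam1 went the other way (6.15, 7.36 and 6.63, then 5.59, 6.07 and 4.96). Cxcl12 was also lower with the groups apart (5.01, 5.01 and 4.94, then 4.91, 4.82 and 4.78). The defining markers Col1a1 and Cdh5 stayed low on all arrays, at 3.70 to 4.08 and 3.54 to 3.85. The part of such transcripts in the Usp2 levels was not tested.

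The other Usp2 probe set, 1417168_a_at, whose suffix marks a set shared by several transcripts of a gene, gave a larger difference. Its levels were 6.11, 5.45 and 6.63 in the intact leukaemias and 8.26, 8.63 and 9.07 in the deficient leukaemias. The groups were again apart, and the Cdh1-intact values were more spread (SD 0.59, n = 3), with array 2 lowest. The difference was 2.59 (SE 0.35), or 6.02-fold. The order of the deficient arrays, array 1 lowest and array 3 highest, was that of the chosen probe set.

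Across the whole table limma called 0 of 18193 genes (0%) at an adjusted p under 0.05, with a lowest adjusted p of 0.849, and 1000 genes (5.50%) had an unadjusted p under 0.05. All 3 deficient arrays lay above all 3 intact arrays for 1209 genes (6.65%), and below them for 926 genes (5.09%). Of the 10 members, Usp2 and Tef were apart in this way, both higher, and none was lower. A difference above 0 was found for 9 of the 10, with Arntl the exception, and for 50.9% of all genes. The median difference was 0.41 over the 10 and 0.0034 over all genes. Since the members were picked from this contrast, nothing is read from these shares.

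**Figure D1:**
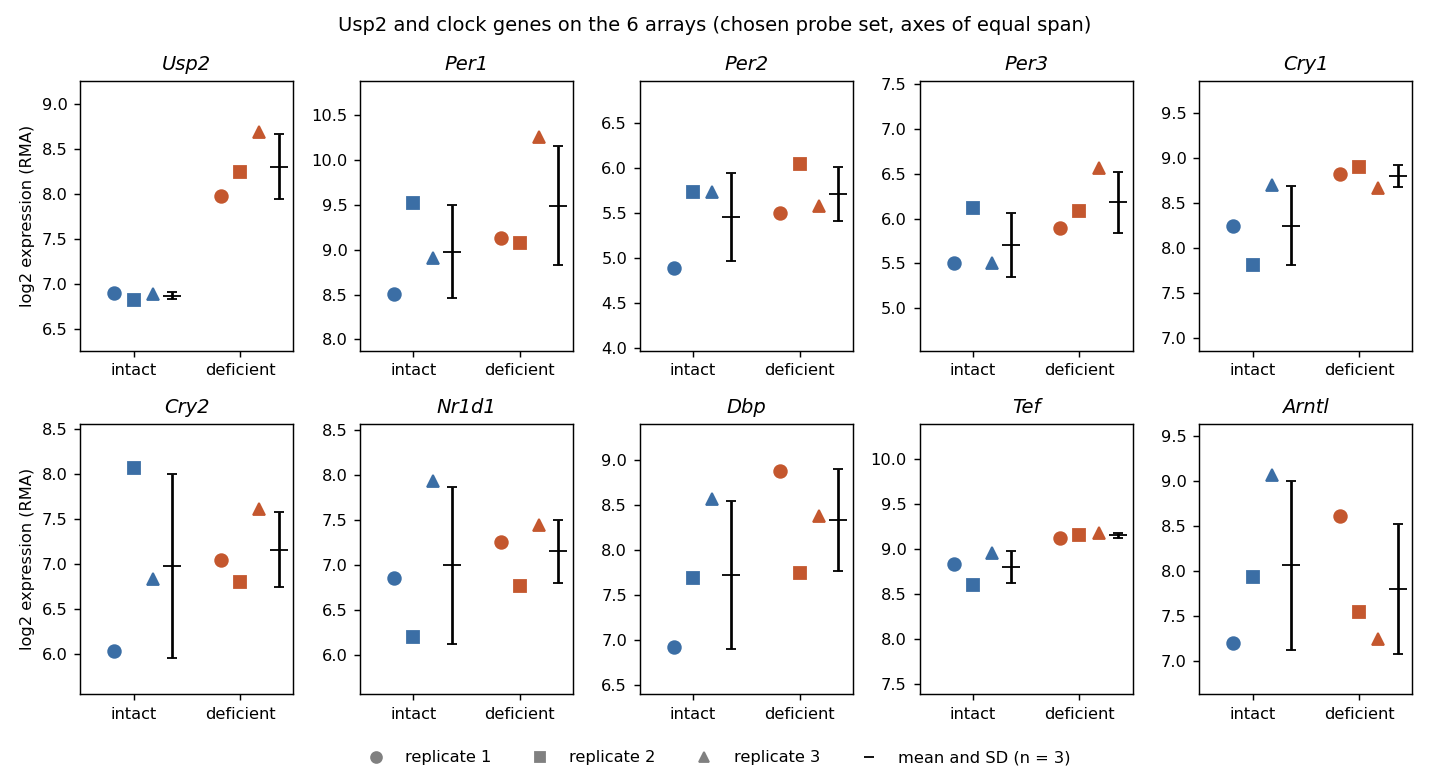
Log2 expression of the chosen probe set of each of the 10 genes on the 3 Cdh1-intact (blue) and 3 Cdh1-deficient (orange) arrays, with symbols for the replicate number and black bars for mean and SD (n = 3); all panels span the same log2 range. The groups are apart for Usp2 (6.82 to 6.89 against 7.98 to 8.69) and Tef (8.61 to 8.96 against 9.13 to 9.18) and overlap in the other panels.

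Tef, an output factor of the clock, was apart with a small difference. It lay at 8.84, 8.61 and 8.96 in the intact leukaemias and at 9.13, 9.16 and 9.18 in the deficient leukaemias. The Cdh1-deficient values were within a narrow range (SD 0.03, n = 3), and the lowest of them lay above intact array 3 by about the spread of the intact values (SD 0.18, n = 3). The difference was 0.35 (SE 0.12), and 0.26 (SE 0.11) without intact array 2, which had the lowest level. It rested on the chosen probe set: the others, 1450184_s_at and 1438033_at, at mean levels of 5.56 and 4.19, differed by -0.01 (SE 0.11) and -0.13 (SE 0.13). With the mean of all Tef probe sets the difference was 0.07 (SE 0.09) and the groups overlapped.

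Dbp, the relative of Tef that is among the most strongly rhythmic transcripts in many tissues, varied within both groups. It lay at 6.92, 7.69 and 8.57 in the intact leukaemias and at 8.88, 7.74 and 8.38 in the deficient leukaemias. The groups overlapped, and intact array 1 was lowest. The difference was 0.61 (SE 0.48). It was 0.21 without that array, 0.34 without deficient array 1 and 0.91 without deficient array 2. Without intact array 3 it was 1.03 (SE 0.41), and the groups were then apart. The other Dbp probe set, 1418174_at, differed by 0.45 (SE 0.41) and was also lowest on intact array 1, at 5.42, and highest on deficient array 1, at 7.08.

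The Period genes encode the inhibitors whose build-up times the loop, and Per1 also responds directly to glucocorticoids and to cAMP signals. Per1 lay at 8.50, 9.52 and 8.91 in the intact leukaemias and at 9.13, 9.08 and 10.25 in the deficient leukaemias. Intact array 2 lay above 2 of the 3 deficient arrays, and deficient array 3 was highest. The difference was 0.51 (SE 0.41). It was 0.78 (SE 0.39) without intact array 2, when the groups no longer overlapped. It was 0.27 without intact array 1 and 0.13 without deficient array 3.

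Per3, a Period gene that is less needed for the rhythm, had 6 probe sets. The chosen one lay at 5.50, 6.12 and 5.50 in the intact leukaemias and at 5.89, 6.09 and 6.56 in the deficient leukaemias. Here too intact array 2 made the groups overlap. The difference was 0.47 (SE 0.25), and 0.68 (SE 0.22) without that array, when the groups were apart. It was 0.28 without deficient array 3 and 0.19 with the mean of all its probe sets. The remaining Per3 probe sets, with mean levels of 4.12 to 5.72, differed by -0.05 to 0.47.

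Per2, a core inhibitor of the loop, was read at low levels. It lay at 4.88, 5.73 and 5.73 in the intact leukaemias and at 5.50, 6.05 and 5.58 in the deficient leukaemias. Intact array 1 was lowest, and the other 5 values were mixed between the groups. The difference of 0.26 (SE 0.29) became -0.03 without that array and 0.09 without deficient array 2. It was 0.40 without intact array 2 or 3, and 0.06 with the mean of all its probe sets. The other Per2 probe sets differed by 0.10 (SE 0.20) and -0.19 (SE 0.11), so their direction was not shared.

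**Figure D2:**
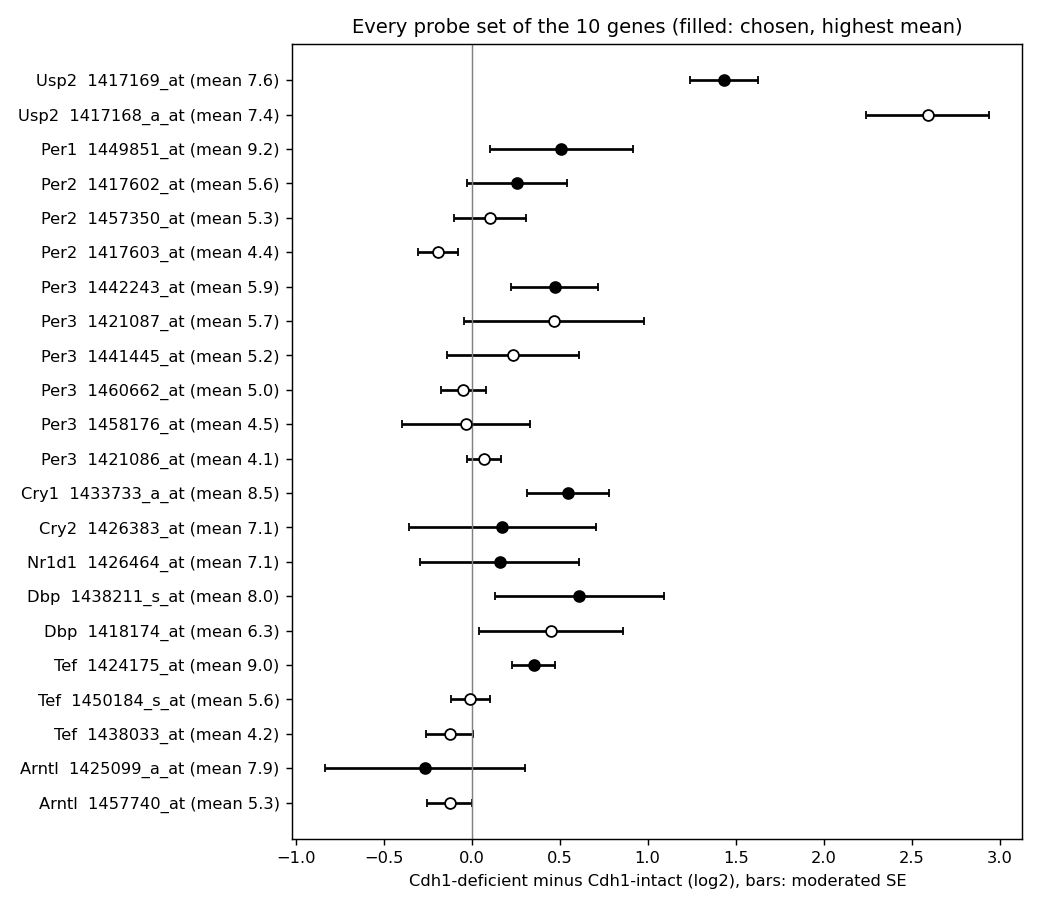
Cdh1-deficient minus Cdh1-intact difference (log2) with its moderated SE for all 22 probe sets of the 10 genes; filled points are the chosen probe sets, and the mean level over the 6 arrays stands beside each name. Both Usp2 probe sets (1.43 and 2.59) lie to the right of all others, and the Per2, Per3 and Tef probe sets differ in sign within a gene.

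The Cryptochrome genes encode the strongest repressors of CLOCK and BMAL1. Cry1 lay at 8.24, 7.81 and 8.69 in the intact leukaemias and at 8.82, 8.90 and 8.66 in the deficient leukaemias. The overlap came from intact array 3 and deficient array 3, which were almost level. The difference was 0.55 (SE 0.23), and 0.33 (SE 0.18) without intact array 2, the lowest. The groups were apart without intact array 3 (0.77) or without deficient array 3 (0.62). Cry2 had no such order. It lay at 6.03, 8.07 and 6.83 in the intact leukaemias and at 7.04, 6.80 and 7.61 in the deficient leukaemias. The intact arrays held both its lowest and its highest value (SD 1.03, n = 3), and the difference of 0.18 (SE 0.53) became 0.72 when intact array 2 was left out, and -0.30 when intact array 1 was. It was 0.10 without intact array 3, 0.35 without deficient array 2 and -0.06 without deficient array 3.

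Nr1d1, the repressor of Arntl, lay at 6.85, 6.20 and 7.93 in the intact leukaemias and at 7.26, 6.76 and 7.44 in the deficient leukaemias. The Cdh1-deficient values lay inside the range of the Cdh1-intact ones. The difference was 0.16 (SE 0.45). It was -0.24 (SE 0.37) without intact array 2 and 0.63 (SE 0.30) without intact array 3. Without intact array 1 it was 0.09, and 0.35 and 0.02 without deficient arrays 2 and 3.

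Arntl, the activator of the loop, was the one member with a difference below 0. It lay at 7.20, 7.93 and 9.07 in the intact leukaemias and at 8.62, 7.54 and 7.24 in the deficient leukaemias. The values spread widely in both groups (SD 0.94 and 0.72, n = 3 each) and overlapped. The difference of -0.26 (SE 0.57) became 0.24 without intact array 3 and 0.02 without deficient array 3. It was -0.70 without intact array 1, -0.67 without deficient array 1 and -0.14 without deficient array 2. Its other probe set, 1457740_at, differed by -0.13 (SE 0.13).

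**Figure D3:**
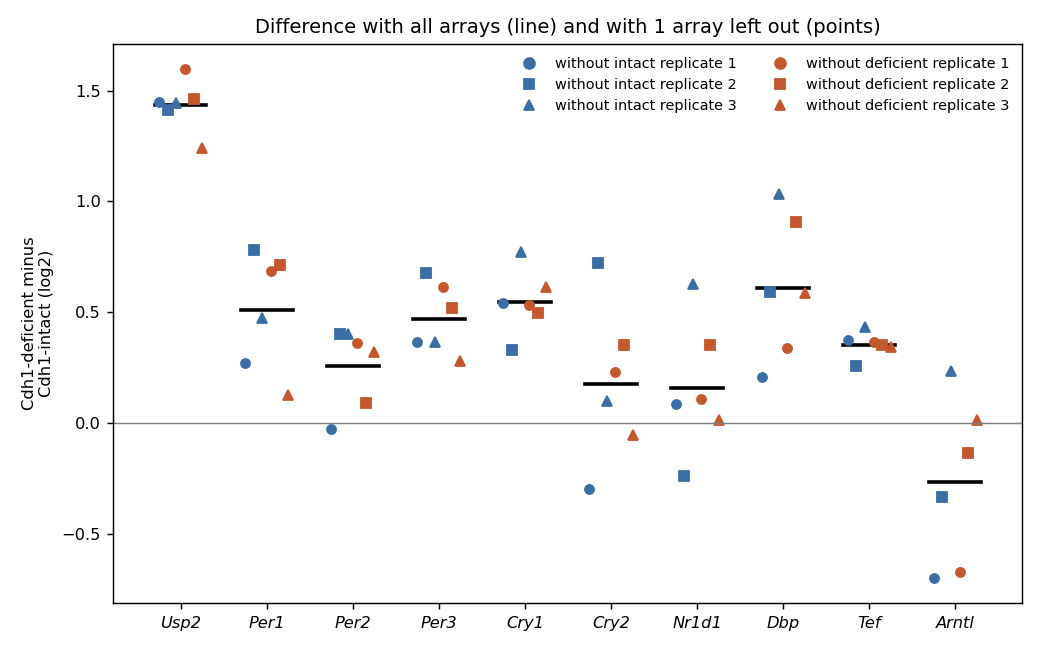
Cdh1-deficient minus Cdh1-intact difference (log2) of each gene with all 6 arrays (black line) and with each array left out in turn (points, coloured by the group of the array left out). Usp2 stays between 1.24 and 1.60 and Tef between 0.26 and 0.43, while Per2, Cry2, Nr1d1 and Arntl lie on both sides of 0.

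Of the 10 members, picked with this contrast known, 0 were lowest on a deficient array, beside 40.7% of all genes. Intact array 1 held the lowest value for 5 members and array 2 for 4, and each was also the lowest array for 20.1% and 24% of all genes. The mean level of the 10 members was 6.99, 7.45 and 7.71 in the intact leukaemias and 7.82, 7.64 and 7.96 in the deficient leukaemias, so these means overlapped at intact array 3 and deficient array 2. The part of the lineage and sex-linked transcripts of intact arrays 1 and 2 in these low values was not tested. With both arrays left out the Usp2 difference was 1.41 (SE 0.31), a setting chosen after seeing the data that leaves 1 intact array. There 6 of the 10 members were higher, among them Tef at 0.20 and Cry1 at 0.10. The lower ones were Arntl at -1.26, Nr1d1 at -0.78, Dbp at -0.23 and Per2 at -0.03.

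The 45 pairs of members were also compared by Pearson's r over the 6 arrays, as a description with no test. The pairs named here were picked after their values were seen, and r was taken both on levels and on deviations from the group means. Cry1 and Tef had r = 0.94 on levels and 0.92 on deviations, Per1 and Per3 0.93 and 0.92, and Per1 and Cry2 0.81 and 0.86. Among the intact arrays, Per1, Per3 and Cry2 were highest on array 2, and Cry1 and Tef were lowest there. Usp2 and Tef had r = 0.86 on levels and 0.23 on deviations. Arntl and Dbp, whose rhythms are known to run in opposite phase in many tissues, had r = 0.68 on levels and 0.89 on deviations.

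The genes whose pattern was most like that of Usp2 over the 6 arrays were sought among 8833 genes, those with a proper symbol whose mean was at least the median over all genes. The highest were Adi1, an enzyme of methionine salvage (r = 0.99, rho = 0.83), and Arnt, a bHLH-PAS partner of hypoxia-inducible factors (r = 0.99, rho = 0.77). Gfm1, a mitochondrial elongation factor, had r = 0.99 and rho = 0.94, Tecpr2, an autophagy gene, r = 0.98 and rho = 1, and Gmeb1 r = 0.98 and rho = 0.77. These r follow the group split, and the 5 genes differed between the groups by 0.40, 0.86, 0.47, 0.68 and 0.71. With the group means removed, Cpeb2 (r = 0.99), Cpsf3 (r = 0.99), Adi1 (r = 0.99), Ptp4a2 (r = 0.98) and Pigo (r = 0.97) were highest. They then follow mostly the 3 deficient arrays, since the chosen Usp2 probe set hardly varied among the Cdh1-intact ones (SD 0.04, n = 3). The other Usp2 probe set, which was not used here, varied more among those arrays (SD 0.59, n = 3). Ptp4a2 differed between the groups by only -0.01 (SE 0.11). No clock gene was among these names.

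The measured genes nearest to Usp2 on chromosome 9 overlapped between the groups. Thy1, a T-cell surface gene next to it, lay at 3.75, 11.68 and 9.52 in the intact leukaemias and at 6.67, 7.03 and 8.34 in the deficient leukaemias. Rnf26, on the other side, lay at 10.63, 10.16 and 10.37, and at 10.44, 10.63 and 10.70. Of the next genes on each side, Trim29 differed by 0.0028, Nectin1 by -9e-04, Mcam by -0.06 and Cbl by -0.42. The groups overlapped for each of the 6 neighbours.

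Other genes of the clock and genes around USP2 were taken as a list of 45, of which 42 were measured. With limma 0 of 42 passed in either direction (Btrc and Noct, both higher, had an unadjusted p under 0.05), 28 were higher and 14 lower, and the median difference was 0.13. The groups were apart for 4 of them, all higher (9.52%, beside 6.65% of all genes), and for none in the other direction.

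**Figure D4:**
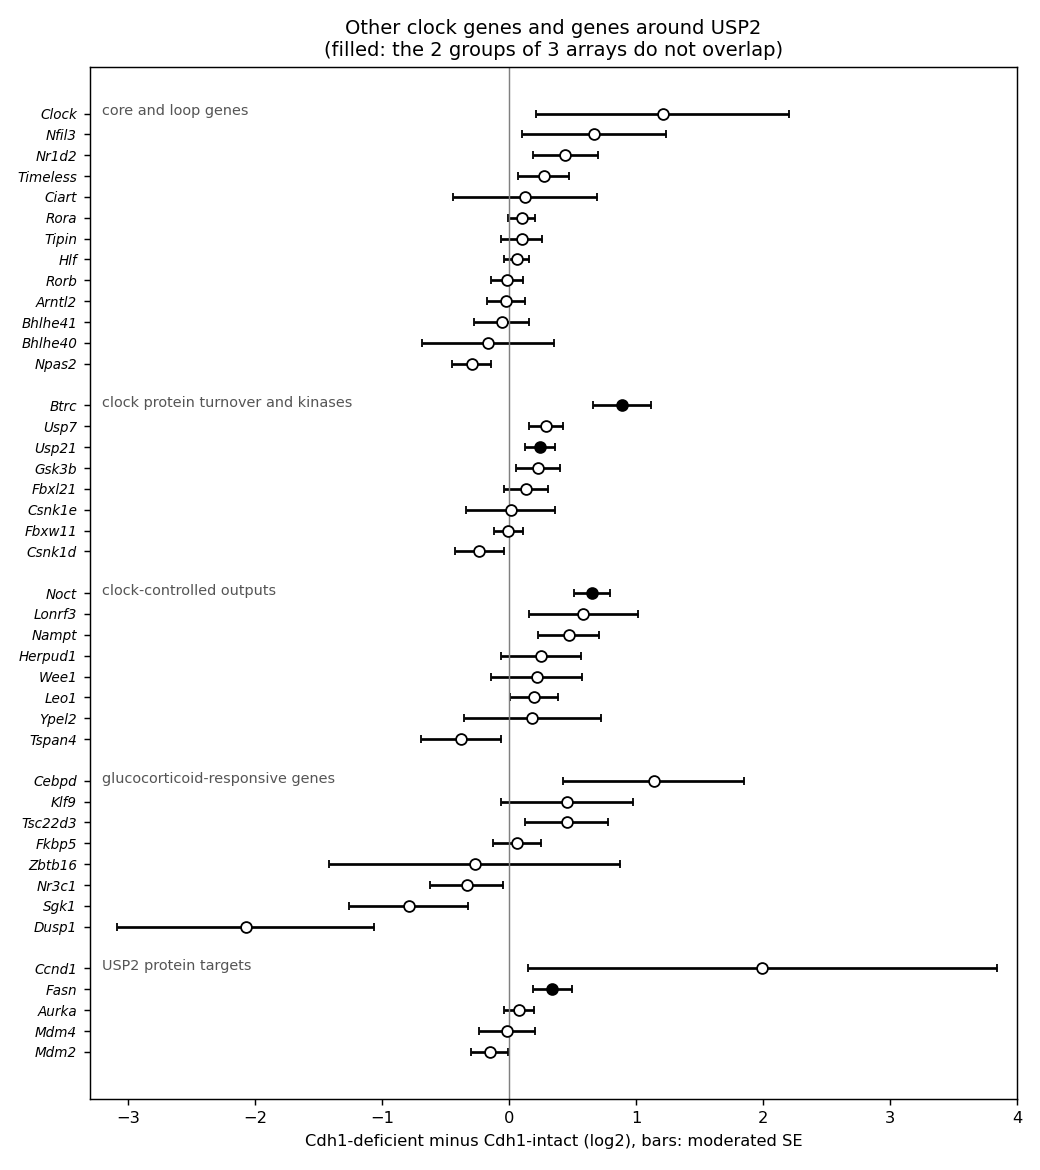
Cdh1-deficient minus Cdh1-intact difference (log2) with its moderated SE for the 42 other measured genes, in 5 subgroups; filled points are genes whose groups do not overlap. Btrc (0.89), Usp21 (0.25), Noct (0.65) and Fasn (0.34) are filled, and Ccnd1, Clock and Dusp1 carry wide errors.

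Of the 13 core and loop genes 8 were higher and 5 lower, with a median of 0.10 and no gene apart. Clock, the partner of BMAL1, differed by 1.21 (SE 1.00), with a level of 3.98 on intact array 2 beside 7.18 to 7.85 on the remaining arrays. Leaving that array out gave 0.02. Its other probe sets differed by 0.28, 0.56 and 0.54. Nr1d2, the paralog of Nr1d1, differed by 0.44 (SE 0.25), and by 0.28 to 0.74 with 1 array left out. It lay at 9.06, 8.98 and 9.89 in the intact leukaemias and at 9.75, 9.76 and 9.76 in the deficient leukaemias. The other Nr1d2 probe set, 1416959_at, at a mean level of 3.60, differed by -0.33 (SE 0.21), with the groups apart. Nfil3, a repressor that competes with DBP and TEF for D-boxes, differed by 0.67 (SE 0.57), or 0.06 without deficient array 2, where it was highest. Timeless, a replication fork gene, differed by 0.27 (SE 0.20), or 0.07 without intact array 1, and by -0.09 on its other probe set. Npas2, a substitute for CLOCK, differed by -0.29 (SE 0.16), or -0.16 without intact array 1.

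Among genes that set the lifetime of clock proteins, 6 of 8 were higher, with a median of 0.18. Btrc encodes the F-box protein beta-TrCP, which marks PER proteins for degradation. It lay at 6.59, 6.63 and 7.18 in the intact leukaemias and at 7.99, 7.70 and 7.39 in the deficient leukaemias. The groups were apart, with a difference of 0.89 (SE 0.23), and 0.81 without intact array 2. The groups were also apart, and higher in the deficient leukaemias, on 2 further Btrc probe sets (0.43 and 0.27). The remaining ones, at mean levels of 4.76 and 3.85, differed by -0.11 and -0.17. Usp21, a close relative of Usp2, lay at 7.43, 7.65 and 7.64, and at 7.94, 7.79 and 7.73, a difference of 0.25 (SE 0.12). Usp7 differed by 0.29 (SE 0.13), and its other probe sets by -0.36 to 0.29. The kinase gene Gsk3b differed by 0.23 (SE 0.17), or 0.08 without intact array 1. Other Gsk3b probe sets went the other way, among them 1437001_at at -0.52 with the groups apart, so its direction depends on the probe set. The PER kinase gene Csnk1d differed by -0.23 (SE 0.20), or -0.05 without intact array 2, and was lower on all 5 of its probe sets.

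Of the 8 clock-controlled outputs 7 were higher, with a median of 0.23. Noct, a rhythmic gene of the deadenylase family, lay at 8.47, 8.68 and 8.80 in the intact leukaemias and at 9.11, 9.42 and 9.38 in the deficient leukaemias. The groups were apart, with a difference of 0.65 (SE 0.14), and 0.67 without intact array 2. Noct was read from a single probe set on chromosome 3. Nampt, the rate-limiting enzyme of NAD salvage, differed by 0.47 (SE 0.24), or 0.24 without intact array 2. Lonrf3 differed by 0.59 (SE 0.43), or 0.31 without deficient array 3. Leo1 differed by 0.20 (SE 0.19), or 0.0038 without intact array 1, and Tspan4 by -0.38 (SE 0.32), or -0.07 without intact array 2.

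The 8 glucocorticoid-responsive genes were split, 4 higher and 4 lower, with a median of -0.10 that became 0.13 without intact array 2. Dusp1, a phosphatase gene that also responds to many other signals, differed by -2.07 (SE 1.01) with overlapping groups. Its levels were 10.93, 11.93 and 8.91 in the intact leukaemias and 7.61, 10.21 and 7.74 in the deficient leukaemias. Sgk1 differed by -0.79 (SE 0.47), or -0.30 without intact array 1, and Cebpd by 1.14 (SE 0.71), or 0.50 without deficient array 2. The other Cebpd probe set, 1456605_at, at a mean level of 4.72, differed by 0.15 (SE 0.15). The classic glucocorticoid target Tsc22d3 differed by 0.45 (SE 0.33), or 0.10 without intact array 2. The receptor gene Nr3c1 differed by -0.33 (SE 0.29), or -0.12 without intact array 2, and by 0.27 and 0.47 on the probe sets 1460303_at and 1457635_s_at. On its chosen probe set Cebpd was highest on deficient array 2 (7.73), where neutrophil markers were also highest (11.26). The part of neutrophil RNA in its level was not tested.

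Transcripts of 5 proteins that USP2 acts on had a median difference of 0.08, with 3 higher and 2 lower. Fasn, the fatty acid synthase gene, lay at 10.40, 10.03 and 10.57 in the intact leukaemias and at 10.65, 10.66 and 10.71 in the deficient leukaemias. The groups were apart by a narrow gap, with a difference of 0.34 (SE 0.16), and 0.19 without intact array 2. Ccnd1, the gene of cyclin D1, had a level of 4.29 on intact array 2 and of 10.33 to 11.29 on the remaining arrays. Its difference was 1.99 (SE 1.85), and -0.23 without that array. Mdm2 differed by -0.15 (SE 0.15), or -0.05 without intact array 2, and its relative Mdm4 by -0.02 (SE 0.22), with both signs when 1 array was left out. The mitotic kinase gene Aurka was at 0.08 (SE 0.12).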

How the data were processed

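Each probe set has a single log2 value per array, which the authors computed by RMA (no version named) per the submitters' processing notes. RMA normalizes array distributions to each other, so changes in total RNA per cell cannot be seen. Array medians were 5.07 to 5.13. Gene symbols came from the 2016 annotation of the platform. Of 45101 probe sets, 9160 without a symbol and 932 with several symbols were left out, and 64 were controls. Groups and replicate numbers come from the titles. limma 3.58.1 (R 4.3.3) was fitted to all 18193 genes without a filter on level (lmFit and eBayes, two-sided, Benjamini-Hochberg), as the series description names it, and was tested on simulated data. SE is the moderated SE. The number of arrays limits the precision. A permutation of 3 against 3 arrays cannot go below p = 0.1.

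Members, lists, motifs and marker sets were chosen with earlier results of these data known. Named were all members, up to 5 genes per subgroup of the other list by smallest unadjusted p, and the 5 genes most like Usp2. The other markers were 6 monocyte and macrophage genes (mean 5.05 on Cdh1-intact array 2, 6.92 to 8.01 elsewhere) and 5 stromal and endothelial genes, given beside Usp2. Alternatives were other scalings, probe set rules, level filters, variance models, array weights, thresholds, a replicate block, Xist as a covariate and left-out arrays.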

Additional observations from a re-analysis of the deposited data

How the results depend on the processing

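Usp2 was higher in Cdh1-deficient cells, with no overlap of the groups, under all 18 alternatives run for it (1.24 to 2.59). It was 2.01 when its probe sets were averaged and 2.59 with the probe set of largest variance. Tef was higher in all 18 (0.07 to 0.43) and its groups were apart in 17, the exception being the mean of all probe sets. Most of these settings could not have changed whether the groups overlap. Filters, variance models, array weights, the replicate block and Xist leave the levels unchanged, and leaving arrays out cannot make separate groups overlap. Leaving out suffixed probe sets kept the same probe set for both genes. The 2 counts therefore add no support. The sign changed in 10 of 179 member values under the alternatives, for Cry2 in 3, for Per2, Nr1d1 and Arntl in 2 each and for Dbp in 1. The number of genes called was 0 under each scaling, probe set rule, filter, variance model, threshold and single left-out array. It was 1 with Xist as a covariate (Cym, named after its value was seen) and 7 without Cdh1-intact arrays 1 and 2, a setting chosen after seeing the data that leaves 1 Cdh1-intact array, assumed to vary like the others. No member was called in any of them. The genes whose groups were apart numbered 2135 with all arrays, 3148 to 5170 with 1 array left out and 9510 without Cdh1-intact arrays 1 and 2, where fewer arrays leave less room to overlap. The member median was 0.15 to 0.50 and that of the other clock genes 0.08 to 0.19. Leaving out suffixed probe sets left Cry1 without a value.

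The replicate numbers were not shown to pair the mice: same-numbered arrays had deviations from the group means correlated across genes at -0.14, 0.01 and 0.04. With the replicate block 0 genes were called, and the Usp2 difference stayed at 1.43 (SE 0.18).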
